A study of Mus musculus with 8 samples.

Results

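The antioxidant and ferritin genes described here are 10 genes found in both deposited single-cell tables: the ferritin chains Ftl1 and Fth1, the heme-degrading enzyme Hmox1, the quinone reductase Nqo1, the glutathione synthesis subunits Gclm and Gclc, the thioredoxin system genes Txnrd1, Prdx1 and Srxn1, and the lipid peroxide reductase Gpx4. They were taken by name, with no threshold on their values, and all 10 were present among the 54146 gene identifiers of the tables. The cells were E14 wild-type mouse embryonic stem (mES) cells, cultured for 2 days in LIF/2i medium together with feeder cells, which were mouse embryonic fibroblasts. They were either untreated (Control) or treated with CX-5461, a small molecule inhibitor of RNA polymerase I. The dose and hours of CX-5461 for the sequenced cells were not given in the sources used here. The labels list 4 samples per condition, but each condition was deposited as 1 table in which no barcode names its sample. Each condition was therefore read as 1 library without replicates, and no test between conditions was run. Barcodes are numbered in the tables, so barcodes shared between libraries could not be counted.

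Ferritin is a hollow protein shell of heavy and light chains that stores iron. The heavy chain, encoded by Fth1, oxidizes ferrous iron, and the light chain, encoded by Ftl1, helps to lay it down as mineral. Ferritin mRNAs carry an iron-responsive element, a stem-loop in the 5′ untranslated region to which iron regulatory proteins bind when iron is scarce, so that ferritin protein can change without any change in mRNA. The enzymes are known as targets of NRF2, encoded by Nfe2l2, a transcription factor held back by KEAP1 that binds antioxidant response elements, while BACH1 represses some of the same genes, Hmox1 above all. Gpx4 is known less as an NRF2 target than as the enzyme that keeps cells from ferroptosis, an iron-dependent form of cell death.

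Cells were read in 3 classes. Deep ES cells were ES-like cells with at least 5000 UMIs (unique molecular identifiers, each marking 1 captured RNA molecule) and at most 0.1 of their UMIs on mitochondrial genes. There were 2340 such cells in Control and 3897 in CX-5461, with medians of 15943 and 14747 UMIs. High-mitochondrial cells, with a share above 0.1 and up to 0.2, numbered 768 and 479, with medians of 2048.5 and 5711 UMIs. Feeders were the 216 Control and 162 CX-5461 cells of 1 fibroblast-like cluster, with medians of 20618.5 and 23608.5 UMIs. The labels fit their markers: Col1a2, a collagen gene of fibroblasts, stood at 745 and 1248 counts per 1000000 UMIs of the class (CPM) in feeders and at 0.943 and 0.750 CPM in deep ES cells, and Pou5f1, a pluripotency gene, at 952 and 757 CPM in deep ES cells and at 52.5 and 21.4 CPM in feeders. Col3a1, a second collagen gene, stood at 219 and 843 CPM in feeders. The deep ES cells of the libraries lay in different clusters, 0 and 1 for Control and mostly 5 and 6 for CX-5461. The high-mitochondrial cells of Control lay almost all in an unnamed shallow cluster of 1161 cells and those of CX-5461 mostly in an ES-like cluster of 489 cells, so depth and library cannot be told apart in that class. In deep ES cells Cdkn1a, a p53 target, had 127 CPM in Control and 536 CPM in CX-5461.

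The sequences of the members show which of their values stand alone and which are shared with copies. Ftl1 lies on chromosome 7 of GRCm38 (45457944 to 45459884, minus strand), and 5 other loci hold near-identical copies of its transcript, with at least 95% identity over at least 200 bases. Ftl1-ps1 on chromosome 13 (74399694 to 74407346), which the annotation lists as protein coding in spite of its name, matches over 930 bases at 97.3% identity. Ftl2-ps on chromosome 4, Ftl1-ps2 on chromosome 10, Gm12164 on chromosome 11 and Gm15590 on chromosome 17 are annotated as processed pseudogenes, which are copies made from an mRNA. The last 90 coding bases are given for Ftl1 and 4 of its copies, from the GENCODE transcripts, because a 3′ assay reads near this end; capitals mark bases that differ from Ftl1.
Ftl1: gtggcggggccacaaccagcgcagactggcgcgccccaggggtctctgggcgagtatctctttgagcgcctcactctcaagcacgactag
Ftl1-ps1: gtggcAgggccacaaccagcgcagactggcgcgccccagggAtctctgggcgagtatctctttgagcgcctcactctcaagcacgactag
Ftl2-ps: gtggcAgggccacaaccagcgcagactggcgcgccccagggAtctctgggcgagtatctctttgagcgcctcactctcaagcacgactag
Gm12164: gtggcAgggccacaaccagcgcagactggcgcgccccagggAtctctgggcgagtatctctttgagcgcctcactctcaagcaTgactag
Gm15590: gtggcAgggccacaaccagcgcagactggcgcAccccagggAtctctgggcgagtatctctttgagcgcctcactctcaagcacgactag

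Ftl1-ps1 and Ftl2-ps differ from Ftl1 at the same 2 bases of this stretch, and over the last 300 bases of the Ftl1 transcript Ftl1-ps1 differs at 3 bases. The annotated transcripts of the processed pseudogenes align to only 134 to 137 of these 300 bases, and differ at 2 or 3 of them. Few bases thus tell the loci apart where they align. The way in which reads matching several loci were counted was not given in the sources used here. Among the other members, Gpx4 has a copy, Gpx4-ps2, with 99.7% identity over 762 bases, and a Gclm transcript runs through a stretch like Ppia where the pseudogene Gm6061 is annotated. The authors marked 36 Gclm UMIs in Control and 23 in CX-5461 as shared with another gene. The only copy of Fth1 found, Gm6977, held 0 and 1 UMIs, and the copies of Prdx1, Gm7204 and Gm21399, held at most 6 UMIs in a library. Hmox1, Nqo1, Gclc, Txnrd1 and Srxn1 had no copy at this limit.

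The other members are placed on the same build. Fth1 (ENSMUSG00000024661.6) spans 9980598 to 9985098 of chromosome 19, and Gpx4 (ENSMUSG00000075706.10) 80047166 to 80056439 and Txnrd1 (ENSMUSG00000020250.10) 82833951 to 82897712 of chromosome 10. Hmox1 (ENSMUSG00000005413.8) spans 75093621 to 75100589 and Nqo1 (ENSMUSG00000003849.8), on the minus strand, 107388225 to 107403206 of chromosome 8. Gclm (ENSMUSG00000028124.15) spans 122245557 to 122270732 of chromosome 3 and Gclc (ENSMUSG00000032350.9) 77754535 to 77794485 of chromosome 9. Prdx1 (ENSMUSG00000028691.12) spans 116685544 to 116700822 of chromosome 4 and Srxn1 (ENSMUSG00000032802.8) 152105516 to 152111376 of chromosome 2. Except for Nqo1 and Ftl1 the members lie on plus strands.

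The iron-responsive elements of the ferritin chains are given because they are the feature that both mRNAs share. Each stretch is 30 bases of the 5′ untranslated region in the GENCODE transcripts ENSMUST00000094434.12 (Ftl1) and ENSMUST00000025563.7 (Fth1), with the 6-base loop in capitals, which starts at transcript base 90 in Ftl1 and 99 in Fth1.
Ftl1: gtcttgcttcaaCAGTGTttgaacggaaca
Fth1: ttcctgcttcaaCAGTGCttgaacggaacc

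Of the members, 8 had a promoter window (250 bases before to 50 after a transcription start) in the RefSeq table of GRCm38.p6, and Hmox1 and Gclc had none. The core of the antioxidant response element, TGACNNNGC on either strand, was found in a window of 4 of them, Gclm, Txnrd1, Prdx1 and Srxn1, beside 12.4% of all 32851 windows and 14.0% of the 27025 genes with a window. It was not found in these windows for Ftl1, Fth1, Nqo1 and Gpx4. A match describes the letters only. The matches before the start are given on the strand of the gene, all on plus strands, with the motif, here in its reverse orientation, in capitals. They lie at chr3:122245403-122245451 for Gclm, chr4:116685446-116685494 for Prdx1 and chr10:82859094-82859142 for 1 of 3 starts of Txnrd1.
Gclm: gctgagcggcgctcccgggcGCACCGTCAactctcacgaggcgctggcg
Prdx1: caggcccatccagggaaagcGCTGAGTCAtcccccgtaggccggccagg
Txnrd1: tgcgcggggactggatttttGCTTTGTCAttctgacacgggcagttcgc

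All members were detected in all 3 classes of both libraries, and for Ftl1, Fth1, Srxn1, Nqo1 and Hmox1 feeders of the Control library stood several-fold above its deep ES cells. In Control, feeders held 7.01 times the Fth1 level of deep ES cells (6.91 to 7.10, an exact interval that, like all intervals here, is at 95% and covers counting error only). The same ratio was 8.78 (7.95 to 9.69) for Srxn1, the sulfiredoxin that repairs overoxidized peroxiredoxins, 4.77 (4.36 to 5.22) for Nqo1 and 4.05 (3.64 to 4.49) for Hmox1. The Fth1 and Hmox1 values include 5 Control feeders rich in macrophage markers, described below. Without these cells Control feeders stood at 6599 CPM of Fth1 and 94.6 CPM of Hmox1, in place of 8096 and 116 CPM. Gpx4 was the member that stood lower in feeders in both libraries, at 0.544 (0.527 to 0.562) of its deep ES level in Control and 0.615 (0.595 to 0.635) in CX-5461. Prdx1, an abundant peroxidase, was close to level between these classes, at 1.12 in Control and 0.923 in CX-5461. In the CX-5461 library the ratio of feeders to deep ES cells was smaller than in Control for Hmox1 (1.78, 1.60 to 1.98), Fth1 (4.13, 4.08 to 4.18), Gclc (1.13, 0.859 to 1.45, against 2.87 in Control), Txnrd1 (1.504, 1.36 to 1.66, against 2.43), Nqo1 (3.44, 3.06 to 3.85), Srxn1 (7.04, 6.44 to 7.69) and Prdx1, without overlap of the intervals. For Gpx4 and Ftl1 it was larger, also without overlap, and for Gclm, at 1.35 and 0.959, the intervals overlap.

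**Figure D1:**
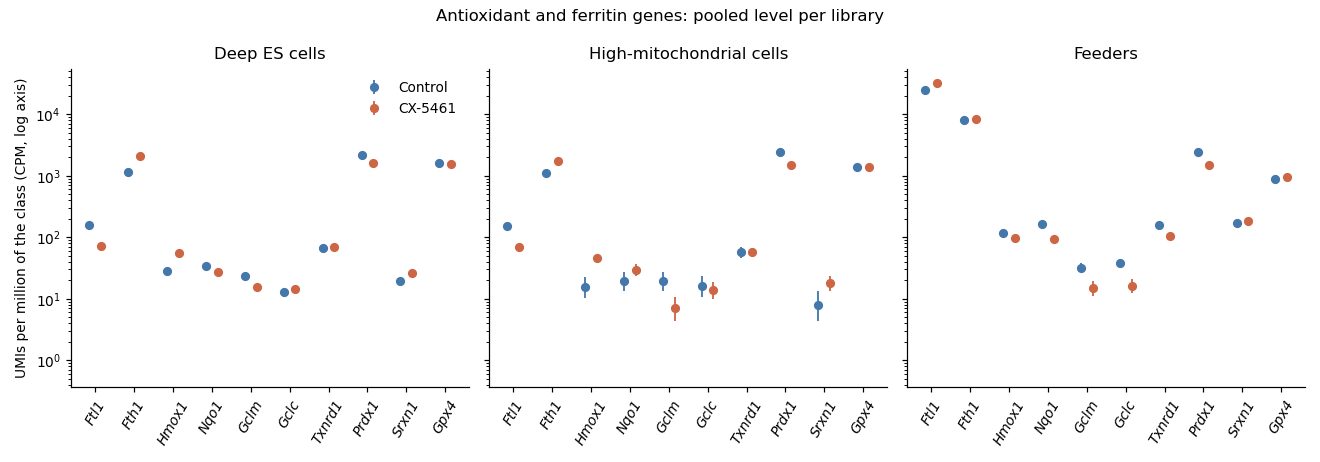
Pooled level of the 10 genes in CPM (log axis) in each cell class, with 1 point per library (blue, Control; orange, CX-5461) and exact 95% counting intervals, which are often smaller than the point. By at least 1.5-fold, Fth1 and Hmox1 stand higher and Ftl1 and Gclm lower with CX-5461 in deep ES cells. In feeders Nqo1, Gclm, Gclc, Txnrd1 and Prdx1 stand lower by the same limit. The Ftl1 points cover only UMIs assigned to that locus, without its copies.

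Among the members the widest differences between conditions in deep ES cells by library totals were those of Ftl1, Hmox1 and Fth1. With the TMM factor, which scales the libraries on the bulk of genes, they were Ftl1, Gclm and Prdx1, at log2 ratios of -1.51, -1.03 and -0.83. The Ftl1 values cover only UMIs assigned to that locus, 1.57% (Control) and 0.669% (CX-5461) of those of Ftl1 and its copies. With the copies added the log2 ratio was 0.12 by totals and -0.28 with the TMM factor. A gene was counted as past the fold where its CPM ratio was at least 1.5 or at most its inverse, counting only genes that had 200 UMIs or more in the class when its libraries were added. All 10 members passed this minimum. Of them 2 were higher with CX-5461, Fth1 and Hmox1, beside 36.1% of the 11559 genes tested, and 2 were lower, Ftl1 and Gclm, beside 7.46%. The median log2 ratio of all genes was 0.36 in this class. Scaled by TMM, every log2 ratio was lower by 0.40, and then no member was past the fold upward, beside 20% of all genes, and 4 were past it downward (Ftl1, Nqo1, Gclm and Prdx1), beside 18.5%. At 2-fold by totals no member was higher, beside 19.4%, and Ftl1 was lower, beside 3.42%.

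Fth1 had 1155 CPM (1145 to 1166) in deep ES cells of Control. In those of CX-5461 it had 2062 CPM (2050.07 to 2073). Every deep ES cell of both libraries held an Fth1 UMI, and the middle of the cells moved with the pool: the quartiles over cells were 893 and 1400 CPM in Control and 1556 and 2502 CPM in CX-5461, so that the upper quartile of Control lay below the lower quartile of CX-5461. The ratio was 1.78 (1.77 to 1.80), a log2 ratio of 0.84 under library totals and 0.44 with the TMM factor, higher than 75.4% of all genes.

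Hmox1, which frees iron from heme, stood at 28.6 CPM (27.0 to 30.3) in Control and at 55.3 CPM (53.4 to 57.2) in CX-5461 deep ES cells. The ratio of 1.93 (1.81 to 2.07) was a log2 ratio of 0.95, or 0.55 with the TMM factor, and lay above 79.0% of all genes. As the gene gave less than 1 UMI per cell on average, shares of cells were compared after thinning every cell to 5000 UMIs. Then an Hmox1 UMI was held by 13.7% of the cells in Control (12.3 to 15.1) and by 24.0% in CX-5461 (22.7 to 25.4), against 36.6% and 51.3% before thinning. For comparison Col1a2, a gene that ES cells should lack, was found in 0.513% and 0.411% of the thinned deep ES cells, and the shares of Hmox1 lay above these in both libraries. In bands of depth the order was the same: Hmox1 stood at 32.4, 32.0 and 24.0 CPM in Control cells with 5000 to 10000 UMIs, in a middle band and in the deepest cells, and at 60.02, 57.5 and 46.8 CPM in CX-5461 cells of the same bands. Macrophages are rich in Hmox1 and ferritin. Their 10 markers summed to 6.86 CPM in Control and 26.9 CPM in CX-5461 deep ES cells, of which 255 of 284 and 1589 of 1617 UMIs were Cd68, a lysosomal gene that other cells express too, while C1qb and C1qc were at 0 in both libraries. The part of these markers in the Hmox1 and Fth1 values was not tested.

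The other NRF2 targets did not move together in deep ES cells. Srxn1 stood at 19.7 CPM in Control and 26.3 CPM in CX-5461, a ratio of 1.34 (1.23 to 1.46), or a log2 ratio of 0.42 that came to 0.02 with the TMM factor and to -0.02 with the median of ratios. Nqo1, which reduces quinones, stood at 34.0 and 27.1 CPM, a ratio of 0.797 (0.742 to 0.857). At matched mitochondrial shares between 2% and 5%, given below, Nqo1 was not lower with CX-5461. Gclm, the modifier subunit of the enzyme that makes the first bond of glutathione, stood at 23.8 and 15.4 CPM, a ratio of 0.647 (0.590 to 0.708), while Gclc, the catalytic subunit of the same enzyme, stood at 13.1 and 14.5 CPM, a ratio of 1.11 (0.993 to 1.23) whose interval holds 1 and whose log2 value turned from 0.15 to -0.25 with the TMM factor. The ratio intervals of the subunits do not overlap. Thinned shares went the same way: cells with a Gclm UMI were 10.3% (9.14 to 11.6) in Control and 6.54% (5.79 to 7.37) in CX-5461, and cells with an Nqo1 UMI were 16.2% (14.7 to 17.7) and 12.7% (11.6 to 13.8). For Gclc the thinned shares were 6.41% (5.45 to 7.48) and 7.19% (6.39 to 8.04), which overlap.

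By library totals Prdx1 was lower, and Txnrd1 and Gpx4 were near level. Prdx1 stood at 2188 CPM (2174 to 2202) in Control and 1616 CPM (1606 to 1626) in CX-5461, a ratio of 0.739 (0.732 to 0.745) that did not reach the fold with totals, at a log2 ratio of -0.44, and passed it with the TMM factor, at -0.83. Txnrd1, which reduces thioredoxin, stood at 66.1 and 70.2 CPM, a ratio of 1.06 (1.011 to 1.11). Gpx4 stood at 1631 and 1581 CPM, a ratio of 0.970 (0.960 to 0.979). The log2 ratio of Txnrd1 turned from 0.09 to -0.31 with the TMM factor, and that of Gpx4 went from -0.04 to -0.44. Single cells spread more widely in Gpx4 with CX-5461, with quartiles of 969 and 1975 CPM against 1299.77 and 1928 CPM in Control. The copy Gpx4-ps2 stood at 394 and 241 CPM, a ratio of 0.612 (0.599 to 0.626), and Gpx4 with it at 0.900 (0.892 to 0.908).

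**Figure D2:**
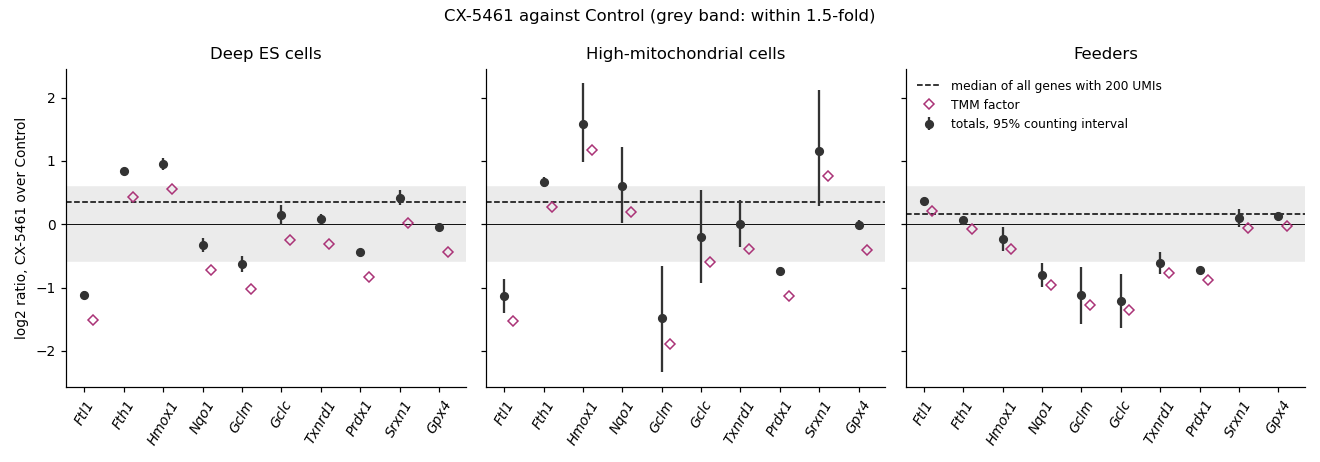
log2 ratio of CX-5461 over Control for the 10 genes in each cell class, by library totals (black, with 95% counting intervals) and with the TMM factor (open diamonds); the grey band is within 1.5-fold and the dashed line is the median of all genes with at least 200 UMIs. Fth1 and Hmox1 lie above the band in deep ES cells with totals but inside it with the TMM factor, and 5 members lie below it in feeders under both.

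UMIs assigned to Ftl1 were lower with CX-5461 in deep ES cells with library totals, the TMM factor and the median of ratios, while for the ferritin light chain family as a whole the direction depended on the scaling. They stood at 157 CPM (153 to 161) in Control and 72.5 CPM (70.4 to 74.7) in CX-5461, a ratio of 0.462 (0.445 to 0.480), with 55.9% and 31.0% of thinned cells holding one. These UMIs were 1.57% of the 413019 UMIs of Ftl1 and its 5 copies in Control and 0.669% of the 650740 in CX-5461. Most of the family's UMIs were assigned to Ftl1-ps1, 84.8% in Control and 65.8% in CX-5461. The level of that locus was 8465 and 7133 CPM, a ratio of 0.843 (0.839 to 0.846). The processed pseudogenes went the other way: Gm12164 stood at 716 and 1742 CPM, Ftl2-ps at 578 and 1684 CPM and Ftl1-ps2 at 64.9 and 205.6 CPM, with log2 ratios of 1.28, 1.54 and 1.66. Summed over the family, the level was 9982.5 CPM in Control and 10839.7 CPM in CX-5461, a log2 ratio of 0.12 by totals but -0.28 with the TMM factor and -0.33 with the median of ratios. The direction of Ftl1 was thus reversed by adding the copies with library totals, and kept with the other scalings.

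In feeders the same family was assigned the other way round. There Ftl1 held 84.6% of the family's UMIs in Control and 89.9% in CX-5461, at 24979.9 and 32170 CPM, and Ftl1-ps1 held 14.7% and 7.62%. Gm15590, which gave only 73 and 216 UMIs in deep ES cells, stood at 134 CPM in Control and 750.2 CPM in CX-5461 feeders, a ratio of 5.60 (5.13 to 6.12). The feeder level of Ftl1 was 159 times (155 to 163) that of deep ES cells in Control and 444 times (431 to 457) in CX-5461, whereas for the summed family the ratio was 2.96 (2.94 to 2.98) and 3.30 (3.28 to 3.32). The level of another feeder gene in deep ES cells bears on this value: Col1a2 in deep ES cells stood at 0.127% of its feeder level in Control and 0.0601% in CX-5461, and Ftl1 at 0.628% and 0.225% of its own. The part of stray feeder RNA in the Ftl1 level of deep ES cells was not tested.

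**Figure D3:**
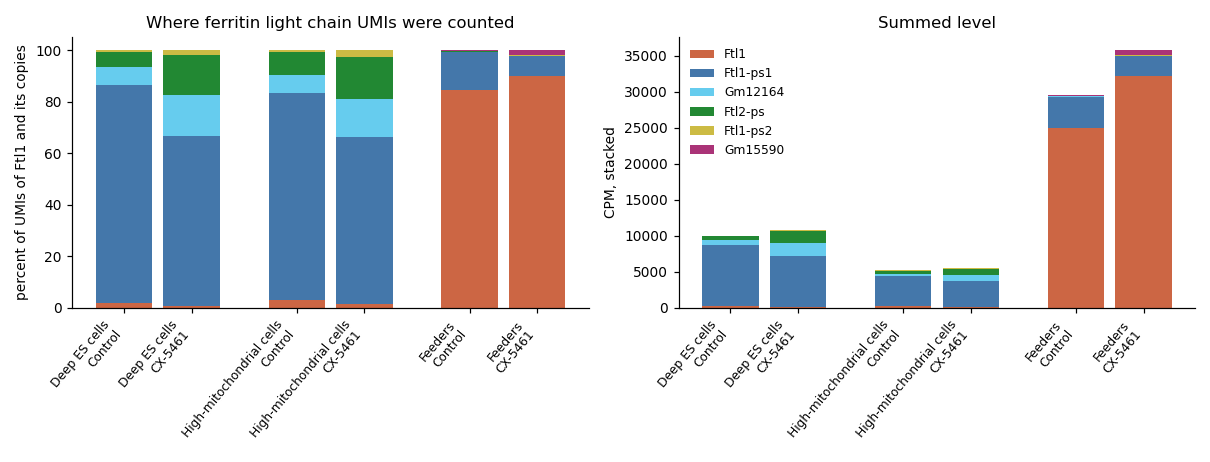
Ferritin light chain UMIs by locus in each class and library: left, percent of the UMIs of Ftl1 and its 5 copies; right, summed CPM, stacked by locus. Ftl1-ps1 holds most UMIs in deep ES and high-mitochondrial cells (84.8% and 65.8% in deep ES cells) and Ftl1 in feeders (84.6% and 89.9%), while the summed level in deep ES cells is 9982.5 and 10839.7 CPM.

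Within the deep ES cells the members were not uniform over clusters. These clusters were drawn on the same cells, without the members, so the values are a description. The Control clusters gave nearly the same levels, with Fth1 at 1168 and 1136 CPM and Hmox1 at 28.8 and 28.3 CPM. In CX-5461 the cluster of 657 deep cells led by Rgs14 and Krt15 stood at 91.9 CPM of Hmox1 (85.5 to 98.6), against 49.3 CPM (47.4 to 51.2) in the main cluster of 3204 cells. The same cells were higher in Fth1, at 2579 against 1977 CPM, and lower in Gpx4, at 1049.88 against 1667 CPM, in Prdx1, at 1243 against 1677 CPM, and in Nqo1, at 17.4 against 28.7 CPM. Without this cluster Fth1 and Hmox1 kept log2 ratios of 0.77 and 0.78 and stayed past the fold, Gpx4 turned to 0.03, and Gclm, at -0.58, was no longer past the fold, so that 1 member was lower in place of 2. Across cells of 1 library the genes followed each other weakly, with Pearson correlations of log values of 0.36 (Control, 2340 cells) and 0.19 (CX-5461, 3897 cells) between Fth1 and the summed light chain family, and of 0.04 and 0.12 between Fth1 and Hmox1. Some pairs were negative in CX-5461, with -0.12 for Fth1 and Gpx4, -0.12 for Gpx4 and Hmox1 and -0.07 for Fth1 and Prdx1. The cells of a library share its depth and composition, and these values are given as a description.

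The level of some members moved with the share of mitochondrial UMIs, and this share differed between the libraries, with medians of 1.88% in Control and 4.00% in CX-5461 deep ES cells. Cells outside the feeder and 2C-like clusters were therefore read in bands of the same share. Between 2% and 3%, the 789 cells of Control had 1167 CPM of Fth1 and the 309 of CX-5461 had 2012 CPM, and Hmox1 stood at 25.7 and 65.2 CPM. Between 3% and 4%, in 208 and 1607 cells, Fth1 stood at 1226 and 2004 CPM and Hmox1 at 26.8 and 59.5 CPM, so both differences were present at matched shares. Nqo1 was not lower with CX-5461 in these bands. It stood at 28.6 and 30.1 CPM between 2% and 3%, and at 28.4 and 28.6 CPM between 3% and 4%. Between 4% and 5% Nqo1 stood at 19.2 (9.90 to 33.5) and 25.8 CPM. Below 2%, in 1359 and 46 cells, it stood at 37.7 (35.4 to 40.2) and 30.2 CPM (16.9 to 49.8). For Prdx1 the difference depended on the band. It stood at 1923 and 1872 CPM between 2% and 3%, and at 1546 and 1700.2 CPM between 3% and 4%, while between 4% and 5%, in 60 and 1480 cells, it stood at 1718 and 1518 CPM. In the other bands Prdx1 was lower with CX-5461: it stood at 2426 and 1750.2 CPM below 2%, at 2820.2 and 1399 CPM between 5% and 10%, at 2493 and 1724 CPM between 10% and 15%, at 2438 and 1329 CPM between 15% and 20%, and at 1824 and 1062 CPM above 20%. The bands above 5% in Control held shallow cells, with a median of 3625 UMIs between 5% and 10% against 12792 in CX-5461.

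**Figure D4:**
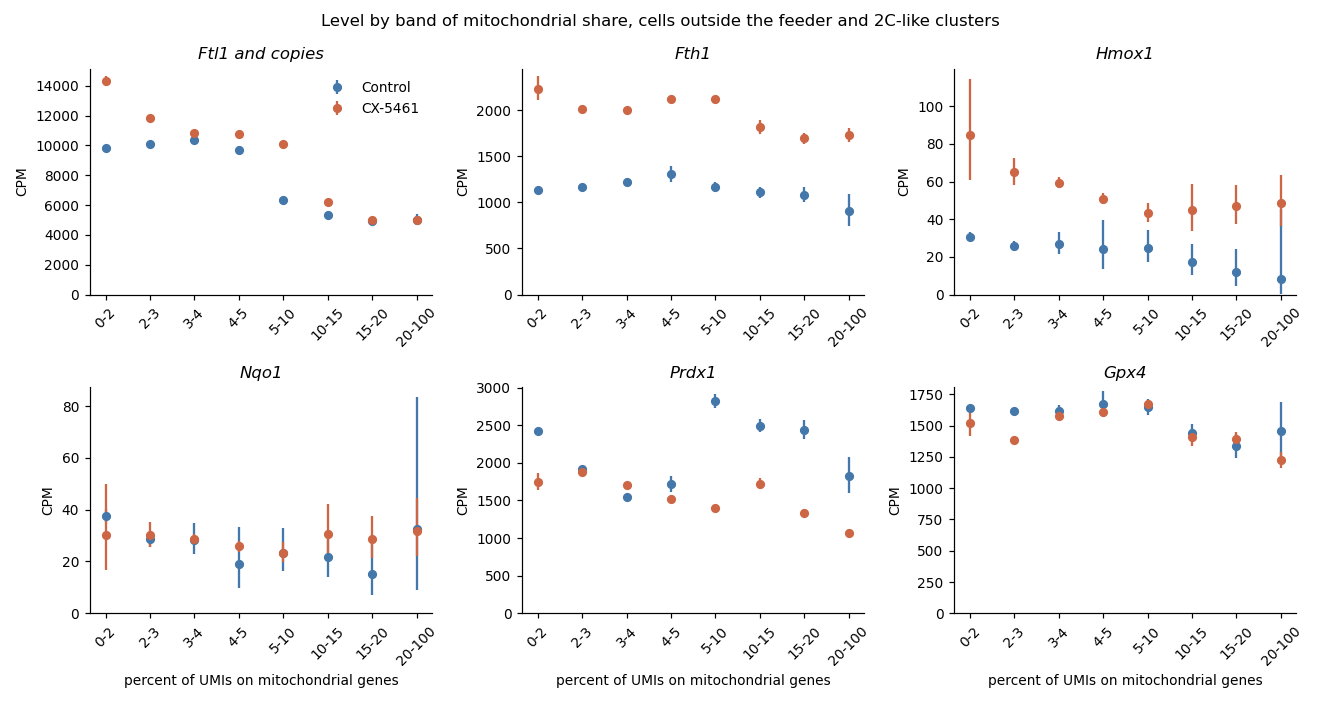
Level in CPM of the summed light chain family and 5 members by band of mitochondrial share, for cells outside the feeder and 2C-like clusters (blue, Control; orange, CX-5461; bars, exact 95% counting intervals). Fth1 and Hmox1 stand higher in CX-5461 in all 8 bands, except that the Hmox1 intervals overlap above 20%, while Prdx1 is level or crosses between 2% and 4% and is lower with CX-5461 in the other bands, and Gpx4 stays between 1224 and 1676 CPM in both libraries; barcodes above 20% were not clustered and can hold feeders.

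High-mitochondrial cells held few UMIs, and only 5 members reached the minimum of 200 there: Ftl1, Fth1, Txnrd1, Prdx1 and Gpx4. Of these, 1 was higher with CX-5461, Fth1, beside 36.3% of the 2894 genes tested, and 2 were lower, Ftl1 and Prdx1, beside 14.9%. The median log2 ratio of all genes was 0.36. With the TMM factor none was higher, beside 18.3%, and the same 2 were lower, beside 26.2%. At 2-fold none was higher, beside 17.8%, and Ftl1 was lower, beside 8.5%. Fth1 stood at 1099 CPM (1050.3 to 1149) in Control and 1744 CPM (1697 to 1792) in CX-5461, a log2 ratio of 0.67 by totals and 0.26 with the TMM factor. Prdx1 stood at 2474 and 1486.5 CPM, a ratio of 0.601 (0.576 to 0.627). Gpx4 was level, at 1406 and 1399 CPM. Ftl1 stood at 153 and 69.9 CPM, and with its copies at 5182 and 5512 CPM, a log2 ratio of 0.09 by totals and -0.31 with the TMM factor.

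The members under the minimum are given by their UMIs. Hmox1 had 27 UMIs in Control and 139 in CX-5461, which is 15.4 and 46.0 CPM and a ratio of 2.98 (1.97 to 4.69). Srxn1 had 14 and 54 UMIs, a ratio of 2.24 (1.23 to 4.36). Nqo1 had 34 and 89 UMIs, a ratio of 1.52 (1.012 to 2.32), Gclm 34 and 21 UMIs, a ratio of 0.358 (0.198 to 0.635), and Gclc 28 and 42 UMIs, a ratio of 0.870 (0.527 to 1.46). The classes differ in depth: after thinning to 2000 UMIs, which left 407 of 768 Control cells and 476 of 479 CX-5461 cells, 3.19% and 8.40% of cells held an Hmox1 UMI, against 3.13% and 22.3% before. Only 7 Control cells in the class had 5000 UMIs or more, against 322 in CX-5461, so values at that depth rest on those 7 cells. In all, 185 cells in Control and 43 in CX-5461 had shares between 0.09 and 0.11, close to the limit that defines the class. Relative to deep ES cells of the same library the summed light chain family was at 0.519 (0.508 to 0.530) in Control and 0.508 (0.501 to 0.516) in CX-5461.

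In feeders Nqo1, both glutathione synthesis subunits, Txnrd1 and Prdx1 were lower with CX-5461, and the ferritin chains were not. All 10 members passed the minimum. None was past the fold upward, beside 20.6% of the 3918 genes tested, and 5 were past it downward (Nqo1, Gclm, Gclc, Txnrd1 and Prdx1), beside 11.1%. The median log2 ratio of all genes was 0.16 and the TMM factor lowered ratios by 0.16, with the same counts of 0 and 5, beside 14.1% and 15.3%. At 2-fold none was higher, beside 6.74%, and 2 were lower, Gclm and Gclc, beside 4.67%. Gclc stood at 37.6 CPM (32.2 to 43.6) in Control and 16.3 CPM (12.6 to 20.8) in CX-5461, from 171 and 64 UMIs. Gclm stood at 32.1 and 14.8 CPM, from 146 and 58 UMIs. Both subunits of glutathione synthesis were therefore lower in feeders, with ratios of 0.434 (0.320 to 0.582) and 0.461 (0.334 to 0.629), while in deep ES cells Gclc was not.

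Nqo1 stood at 162 CPM (151 to 175) in Control and 93.3 CPM (84.0 to 103) in CX-5461 feeders, a ratio of 0.574 (0.505 to 0.652). Prdx1 stood at 2453 and 1491 CPM, a ratio of 0.608 (0.589 to 0.628), and Txnrd1 at 161 and 105 CPM, a ratio of 0.657 (0.581 to 0.742). Srxn1 and Gpx4 were near level, with ratios of 1.07 (0.968 to 1.19) and 1.09 (1.05 to 1.14). Fth1 stood at 8096 and 8523 CPM, a ratio of 1.05 (1.04 to 1.07). With the TMM factor the log2 ratios of Fth1, Srxn1 and Gpx4 turned from 0.07, 0.10 and 0.13 to -0.08, -0.06 and -0.03. The CPM of Hmox1 was 116 (106 to 126) in Control and 98.4 (88.8 to 109) in CX-5461. Ftl1 stood at a log2 ratio of 0.36, inside the fold. Slc7a11, the cystine importer that feeds glutathione synthesis, was lower too, at 71.6 and 25.2 CPM, a ratio of 0.352 (0.278 to 0.442), whereas in deep ES cells it gave 31 and 9 UMIs.

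Cells of another type touch the feeder values. Macrophage markers, a list of 10 genes, summed to 1184 UMIs (260.1 CPM) in Control feeders and 68 UMIs (17.3 CPM) in CX-5461 feeders. Of the Control UMIs 1109 lay in 5 cells with at least 10 of them each, while no CX-5461 feeder reached 10, and C1qa, C1qb and C1qc were at 0 in CX-5461 feeders. These 5 cells held 102 of the 527 Hmox1 UMIs and 7219 of the 36850 Fth1 UMIs of Control feeders. Without them Hmox1 stood at 94.6 CPM in Control against 98.4 CPM, a log2 ratio of 0.06 in place of -0.24, so the lower Hmox1 value rested on these cells. Fth1 then stood at 6599 against 8523 CPM, a log2 ratio of 0.37 in place of 0.07. The 5 genes past the fold stayed past it, with Prdx1 at -0.62 and Txnrd1 at -0.62. UMIs of Pou5f1 were found in 107 of 216 Control and 44 of 162 CX-5461 feeders. Leaving out these cells as well kept 105 and 118 feeders, in which Nqo1, Txnrd1 and Prdx1 were past the fold at -0.78, -0.62 and -0.72, and Gclm and Gclc, at -1.15 and -1.49, fell below 200 UMIs.

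Of the regulators, Nfe2l2 was past the fold upward in all 3 classes by totals, beside 36.1%, 36.3% and 20.6% of all genes. It stood at 31.0 and 47.8 CPM in deep ES cells, a ratio of 1.54 (1.44 to 1.65), at 26.8 and 61.6 CPM in high-mitochondrial cells, a ratio of 2.29 (1.66 to 3.23), and at 37.1 and 59.1 CPM in feeders, a ratio of 1.59 (1.30 to 1.95). With the TMM factor its log2 ratios were 0.23, 0.80 and 0.51, past the fold only in high-mitochondrial cells. NRF2 is known to be controlled mainly through its protein, which was not measured. Keap1 stood at ratios of 0.833 (0.770 to 0.902) in deep ES cells and 1.57 (1.19 to 2.07) in feeders, and Bach1 at 1.03 (0.903 to 1.19) and 1.22 (0.845 to 1.75). Tfrc, the receptor that brings iron into cells, was at 0.972 (0.899 to 1.05) in deep ES cells and at 0.763 (0.618 to 0.945) in high-mitochondrial cells. In feeders it gave 47 and 18 UMIs.

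A wider list of 93 redox and iron genes, of which 92 were found, showed where the members sat in their pathways. In deep ES cells 84 passed the minimum; 28 were higher, or 33.3% beside the 36.1% of all genes, and 8 were lower, or 9.52% beside 7.46%, with a median log2 ratio of 0.29 against 0.36 for all genes. Scaled by TMM, 14 were higher and 16 lower, beside 20% and 18.5% of all genes. The list as a whole was thus near the background in deep ES cells. In high-mitochondrial cells 19 of 40 were higher, or 47.5% beside 36.3%, and 4 lower, or 10% beside 14.9%, with a median of 0.54 against 0.36. In feeders 19 of 59 were higher, or 32.2% beside 20.6%, and 4 lower, or 6.78% beside 11.1%, with a median of 0.26 against 0.16.

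Of the glutathione genes 10 of 20 were higher and 1 lower in deep ES cells, or 50% and 5% beside 36.1% and 7.46% of all genes. With the TMM factor 4 of the 20 were higher and 2 lower, where all genes gave 20% and 18.5%. Gpx3, a secreted glutathione peroxidase, had the highest ratio of the list in all 3 classes. It stood at 6.16 CPM in Control and 374 CPM in CX-5461 deep ES cells, a ratio of 60.7 (53.6 to 68.9). In high-mitochondrial cells it had 19 and 1224 UMIs, a ratio of 37.4 (23.8 to 62.3), and in feeders it stood at 97.3 and 514 CPM, a ratio of 5.28 (4.76 to 5.86). Gsto1, an omega-class glutathione transferase, stood at 29.9 and 102 CPM in deep ES cells, a ratio of 3.40 (3.196 to 3.62), and Chac1, which degrades glutathione, at 0.379 (0.280 to 0.509). Glrx, a glutaredoxin, was at 3.82 (2.61 to 5.76) in high-mitochondrial cells. In feeders Gstp1 was at 2.58 (2.20 to 3.04) and Gpx8 at 2.58 (2.297 to 2.89).

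Of the NRF2 regulators and further targets 6 of 13 were higher and none lower in deep ES cells by totals, or 46.2% beside 36.1% and 0 beside 7.46%. With the TMM factor 2 were higher and 3 lower, where all genes gave 20% and 18.5%. Ephx1, an epoxide hydrolase, went from 39 to 1078 UMIs, a ratio of 19.1 (13.8 to 26.9). Cbr1, a carbonyl reductase, was at 2.56 (2.38 to 2.75) in deep ES cells and at 3.29 (2.51 to 4.36) in feeders. Of the p53-linked antioxidant genes 3 of 6 were higher and none lower with either scaling, beside 36.1% of all genes higher by totals and 20% with the TMM factor. Among them was Sco2, a copper chaperone of cytochrome oxidase, at 2.64 (2.43 to 2.88) in deep ES cells and 3.69 (2.46 to 5.70) in high-mitochondrial cells. Sat1, which acetylates polyamines and is linked to ferroptosis, was at 3.52 (2.54 to 4.98) in high-mitochondrial cells and at 2.69 (2.46 to 2.94) in feeders.

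The iron and heme group, as listed, also holds the metallothioneins Mt1 and Mt2, which make up 2 of its 4 lower genes. In this group 3 of 15 genes were higher and 4 lower in deep ES cells. These are 20% and 26.7%, beside 36.1% and 7.46% of all genes. With the TMM factor 2 of the 15 were higher and 4 lower, where all genes gave 20% and 18.5%. The metallothioneins, which bind zinc and copper, were the lowest of this group: Mt2 stood at 1429 CPM in Control and 377 CPM in CX-5461, a ratio of 0.264 (0.260 to 0.268), and Mt1 at 1176 and 473 CPM, a ratio of 0.402 (0.396 to 0.408). In feeders their ratios were 0.775 and 0.760. They were lower in high-mitochondrial cells too, at 0.212 (0.196 to 0.230) and 0.302 (0.277 to 0.328). In the thioredoxin group 3 of 13 were higher, or 23.1% beside 36.1%, and 1 lower, or 7.69% beside 7.46%, which was Txnrd3, at 0.472 (0.382 to 0.582). The remaining groups were small. Of the superoxide and peroxide genes 0 of 5 were higher and 0 lower in deep ES cells. Of the NADPH supply genes 2 of 6 were higher and 1 lower, or 33.3% and 16.7%. Of the lipid peroxidation and ferroptosis genes 1 of 6 was higher and 1 lower, or 16.7% each. All genes gave 36.1% and 7.46%.

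**Figure D5:**
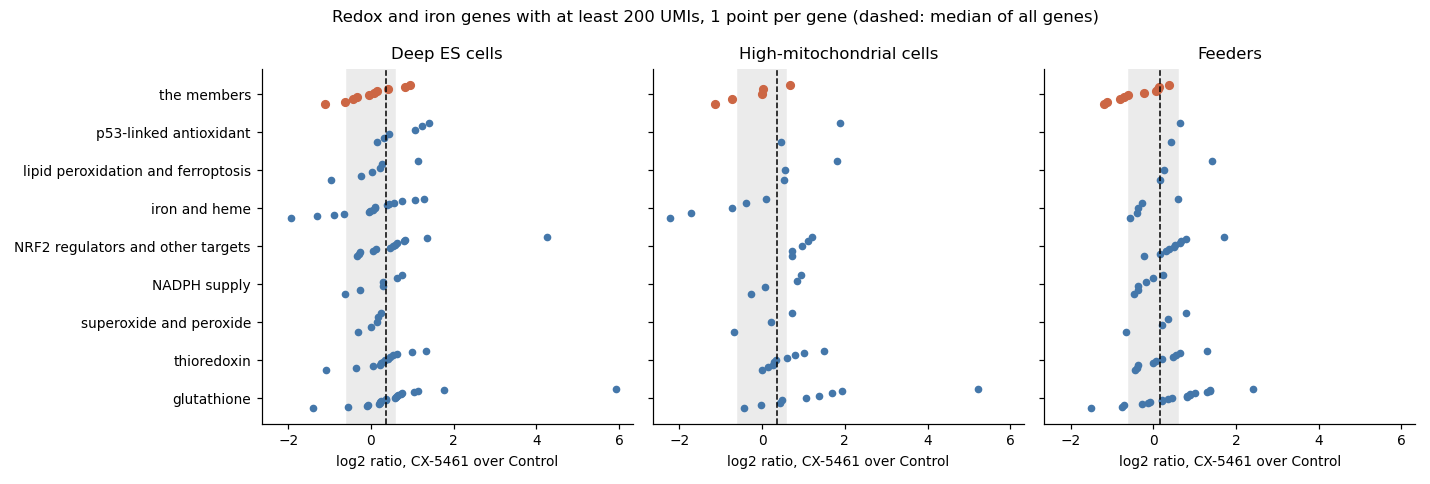
log2 ratio of CX-5461 over Control for each gene of the redox and iron list with at least 200 UMIs in a class (blue) and for the members that pass the same minimum (orange), by group; the grey band is within 1.5-fold and the dashed line is the median of all genes. Gpx3 is the far point of the glutathione group in each class, at 5.92, 5.22 and 2.40, and in feeders the members reach further down than most of the list.

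To find genes with a like pattern, log2 CPM was compared over 18 pools of cells (8 bands of mitochondrial share and the feeders, in each library) among 5047 genes. The genes most like Ftl1 were Gas5, Isg15 and Rps2, with Pearson correlations of 0.98 each (0.982, 0.978 and 0.978). The genes most like Hmox1 were Fos, Fxyd5 and Dstn, at 0.974, 0.968 and 0.967. The pools share a library and, for Ftl1, the 2 feeder pools stand far from the others, so the correlations are a description.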

How the data were processed

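Processed tables of 10x Genomics single-cell RNA-seq were used for Control and CX-5461. The tables deposited by the authors hold unnormalized UMI counts of every gene in every barcode, made with a published droplet pipeline, and name Seurat 2.3.4 and mm10 in their processing notes. How reads matching several loci were counted was not given in the sources used here. The depth was 49610287 UMIs in 3838 barcodes (Control) and 69841836 UMIs in 4922 barcodes (CX-5461). Cells with at least 500 UMIs and a mitochondrial share of at most 0.2 were kept (3767 and 4697). They were clustered with scanpy 1.11.5 (2000 variable genes, 16 components, 15 neighbours, resolution 0.5) without the members, the redox list, their copies and mitochondrial genes. Clusters were named from marker lists, and no doublet caller was run. UMIs were summed per class and library and given as CPM; intervals are exact at 95% (Poisson, conditional binomial, Clopper-Pearson) and cover counting error only. Copies were found with blastn 2.17.0. Gene symbols and types come from GENCODE of GRCm38; 54079 of 54146 identifiers matched without version. The members and lists were chosen with earlier results of these data known. Named genes are the members, 5 regulators and transporters, listed genes past 2-fold (at most 5 each way per class), the 3 genes most like Ftl1 and Hmox1, and marker checks. Ratios were tested on simulated data: of 11559 deep ES genes, 67 were changed 2-fold and 67 of them came out past 1.5-fold, against 32 of 67 changed by just 1.5-fold (31 and 34 of 67 in high-mitochondrial cells and feeders). Apart from the changed genes, the simulated libraries shared the same profile and held counting error only. They thus lack the shift over all genes seen in the data and any variation between libraries, and do not test the choice of scaling. Alternatives were other scalings, cell limits, copies added, thinning and feeders chosen by markers.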

Additional observations from a re-analysis of the deposited data

Results flagged for a closer look

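For Ftl1 the direction differed between cell types: the log2 ratio of CX-5461 over Control was -1.11 in deep ES cells and 0.36 in feeders. The difference was not tested, since each condition is 1 library. With the near-identical copies added, the values were 0.12 and 0.28 by library totals, and -0.28 and 0.12 with the TMM factor. For Hmox1 the log2 ratio was 0.95 in deep ES cells and -0.24 in feeders, also not tested. Without the 5 Control feeder cells rich in macrophage markers the feeder value was 0.06.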

How the results depend on the processing

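No paired analysis was possible because the barcodes carry no sample number, and leaving out a replicate was not possible for the same reason. Over all members, 83 of 90 log2 ratios under alternatives kept their direction in deep ES cells, 68 of 76 in high-mitochondrial cells and 70 of 80 in feeders. For members past the fold with at least 200 UMIs these were 35 of 36, 23 of 24 and 40 of 40. Those members were picked by their large ratios, so their direction was unlikely to turn. These tallies include values that could not change, since adding copies leaves members without a copy, and Gclm, whose copies were not added, as they were. All alternatives use the same libraries, so they do not stand in for replicates. By library totals adding copies reversed Ftl1 to 0.12 in deep ES cells and 0.09 (0.0888) in high-mitochondrial cells (-0.28 and -0.31 with the TMM factor), and left 1 member lower in each. In high-mitochondrial cells Nqo1 was reversed to -1.86 with at least 5000 UMIs (7 Control cells). Above a mitochondrial share of 0.2 Nqo1 turned to -0.0288, from 4 and 35 UMIs, and Srxn1 to -0.57, from 3 and 18 UMIs. Their ratios there were 0.980 (0.351 to 3.80) and 0.672 (0.196 to 3.56), with intervals that hold 1. The cause was not tested. With the TMM factor or the median of ratios, deep ES cells gave 0 members higher and 4 lower, and high-mitochondrial cells 0 higher. At 2-fold the counts were 0 higher and 1 lower in both ES classes and 2 lower in feeders. With at least 5000 UMIs high-mitochondrial cells gave 0 higher and 1 lower. Without the Krt15 cluster, chosen after seeing the data, 1 member was lower in deep ES cells. Feeders chosen by marker UMIs (112 and 119 cells), or without cells with macrophage or Pou5f1 UMIs, gave 3 lower, since Gclm and Gclc then had under 200 UMIs. For the redox and iron list the TMM factor gave 14 higher and 16 lower of 84 in deep ES cells. It gave 11 and 7 of 40 in high-mitochondrial cells, and 14 and 7 of 59 in feeders. The shares of all genes higher and lower were 20% and 18.5%, 18.3% and 26.2%, and 14.1% and 15.3% in these classes. Without a minimum of UMIs, 48.5% of all deep ES genes were past the fold upward and 13.7% downward.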

Other observations

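The X-linked ferritin heavy-like genes Fthl17a to Fthl17f, which were looked at after their values were seen, stood together at 13.6 CPM (12.5 to 14.7) in Control and 55.2 CPM (53.4 to 57.1) in CX-5461 deep ES cells, a ratio of 4.07 (3.72 to 4.46). They were found in 6.45% and 17.4% of the cells thinned to 5000 UMIs. In feeders they gave 0 and 5 UMIs. The authors marked part of their UMIs as shared, for example 253 of Fthl17c in CX-5461, so single copies are uncertain.

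Of the Ppia-like loci, over all barcodes of 49610287 UMIs in Control and 69841836 in CX-5461, Gm10123 had 2901 UMIs in Control and 10137 in CX-5461, and Gm13493 had 2357 and 8286, while Ppia had 196244 and 299103 and Gm9234 had 20 and 21. Over the 754 processed pseudogenes with at least 200 UMIs in deep ES cells the median log2 ratio was 0.32, beside 0.36 for 10299 protein coding genes, and Gpx4-ps2 was at -0.71.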
